A study of Mus musculus with 2 samples.

Results

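Aminoacyl-tRNA synthetases attach each amino acid to its transfer RNA, and the charged tRNAs are what the ribosome reads. Mammalian cells carry a set of these enzymes in the cytosol and a separate set, also made from nuclear genes, that is imported into mitochondria to charge the tRNAs of the mitochondrial genome. The enzymes for glycine and lysine, Gars and Kars, serve both compartments from a single gene each, and mitochondria make glutamine tRNA by amidating a misacylated tRNA. Many cytosolic members belong to the genes that the transcription factor ATF4 turns on when amino acids run short or the endoplasmic reticulum is stressed.

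The 36 genes described here, 20 cytosolic and 16 mitochondrial, were taken by gene symbol from a fixed list. No measured value enters the list, but it was chosen with earlier results of these data known. All 36 were found among the 18224 listed genes, and all 36 had a mean of at least 1 CPM (reads of a gene scaled to the library size), as had 12243 genes in all. The mitochondrial enzyme for aspartate was not on the list and is not used here. RNA came from B16 cells, a pigmented mouse melanoma line, as 1 library of control-treated cells and 1 library of cells given LY500307. That compound, also called erteberel, is a synthetic agonist with selectivity for estrogen receptor beta. The sources used here do not give dose, duration or how many cultures went into a library. With a single library per group no difference has a replicate check, no p-value can be given between treatments, and each value describes these libraries. In bulk RNA of this kind, fewer cells of a type and less RNA per cell cannot be told apart.

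The control library held 16704950 recovered reads and the LY500307 library 14698853. All 7 melanocyte lineage markers were measured, at 297.7 to 10406 CPM, and their log2 folds between the libraries ran from -0.14 to 0.058. Of 14 markers of leukocytes, fibroblasts, endothelium and keratinocytes, 4 were measured, at 1.14 to 4.82 CPM, and the other 10 were not analysed here. Synthetase genes had between 123 and 11475 reads in a library. Each read ratio comes with its exact 95% interval, which allows for counting error alone.

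A short DNA element through which ATF4 and C/EBP factors act, the C/EBP-ATF response element, marked part of the cytosolic group. Its core was searched as TGATGNAA, on either strand, in RefSeq promoter windows (build GRCm38.p6) that run from 250 bases before to 50 after a transcript start. A window was at hand for 27 of the 36 genes, and Cars, Hars, Lars, Nars, Rars, Vars, Wars, Hars2 and Pars2 had none. The core was present for 5 of 13 cytosolic genes, namely Aars, Gars, Iars, Tars and Yars, and for 0 of 14 mitochondrial genes. Of all 32851 windows of the same length 3.97% held it. All 5 genes with the core belong to the 13 cytosolic genes that are reported ATF4 targets, of which 8 had a window. The other cytosolic genes had 5 windows with no match. A match is a string of letters and shows no binding, and no match covers these windows alone.

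A stretch of 30 bases around 1 match per gene is shown to compare the element between genes, and it need not be the only match in a window. The stretches are read 5′ to 3′ on the strand that holds the core, and capitals mark the core.
Aars, chr8:111033840-111033869, minus strand: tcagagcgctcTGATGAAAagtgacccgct
Gars, chr6:55037960-55037989, minus strand: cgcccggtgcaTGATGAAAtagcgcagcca
Iars, chr13:49682126-49682155, minus strand: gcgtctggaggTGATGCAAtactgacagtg
Tars, chr15:11399655-11399684, plus strand: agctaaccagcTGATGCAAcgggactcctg
Yars, chr4:129189895-129189924, plus strand: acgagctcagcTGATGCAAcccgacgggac

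Counted along the gene, the first base of the core shown lay at position 10 from the start of Aars. It lay at position -30 for Gars, -15 for Tars, 8 for Iars and 4 for Yars. The core runs against the direction of the gene in all of these but Yars. The 250 bases before the start of Gars are given as well, because this gene was the most abundant of the cytosolic group and one of the few that were higher in the LY500307 library. Capitals mark the core, here as its reverse complement, in the orientation of the gene.
Gars, chr6:55037751-55038000, plus strand: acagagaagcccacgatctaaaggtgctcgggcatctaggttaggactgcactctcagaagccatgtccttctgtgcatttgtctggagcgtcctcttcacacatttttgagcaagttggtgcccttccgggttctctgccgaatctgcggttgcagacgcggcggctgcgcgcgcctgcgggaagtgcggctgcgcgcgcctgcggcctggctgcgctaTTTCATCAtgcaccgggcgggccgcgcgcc

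The synthetase genes lay close together in the control and LY500307 libraries. On the scale log2(CPM + 1), 35 of the 36 were within 1.2-fold, and the largest absolute log2 fold was 0.27. Past 1.2-fold were 0 genes on the higher side and 1 on the lower side, the mitochondrial Cars2. Among all 12243 genes the same bound was passed by 11.5% upward and 9.91% downward. At the levels of the cytosolic enzymes, 83.3 to 723.5 CPM, the shares over 2796 genes were 2.58% and 3.90%, beside 0 of 20. At the levels of the mitochondrial enzymes, 7.89 to 136.7 CPM, they were 8.69% and 7.77% over 7933 genes, beside 0 and 1 of 16. No synthetase gene passed 1.5-fold, a bound that 2.25% of all genes passed upward and 1.39% downward, or 2-fold, passed by 0.253% and 0.123%. The median log2 fold was -0.019 for the cytosolic and -0.062 for the mitochondrial enzymes, beside -0.0075 for all genes. With reads divided by each library's own total the cytosolic median was 0.00040, so its sign depends on the scaling.

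**Figure D1:**
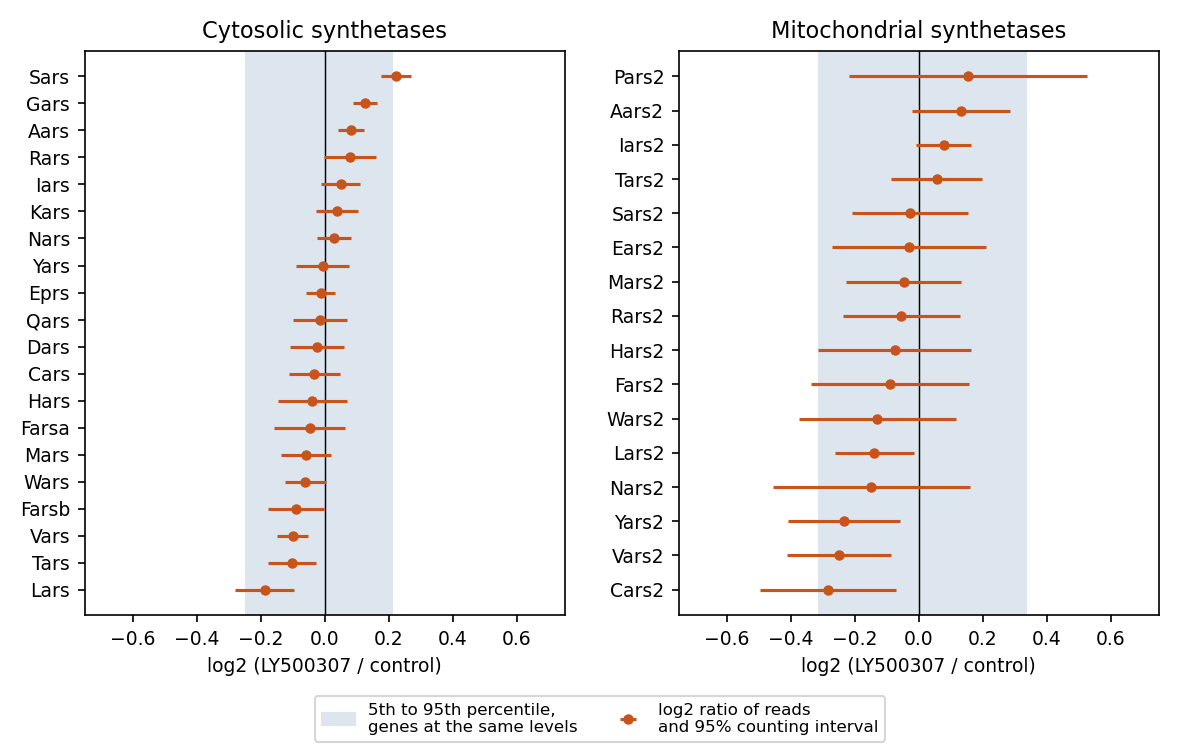
Log2 ratio of reads, LY500307 over control, for each cytosolic (left) and mitochondrial (right) synthetase gene, with exact 95% counting intervals as bars. The shaded band spans the 5th to the 95th percentile of the log2 fold over all genes in the same range of levels, -0.25 to 0.21 on the left and -0.31 to 0.34 on the right. Only Sars lies outside its band.

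Counting intervals set apart 11 of the 36 genes. They lay above 1 for 3 genes, 8.33%, and below 1 for 8, 22.2%, where all genes gave 17.2% and 19.2%. For the cytosolic enzymes these were 3 and 4 of 20, beside 20.7% and 33.5% of genes at the same levels. For the mitochondrial enzymes they were 0 and 4 of 16, beside 17.3% and 18.9%. Abundant genes have narrow intervals, so small differences set them apart. With reads divided by each library's own total 5 genes changed sides: the intervals of Farsb and Lars2 then included 1, and those of Iars, Rars and Iars2 lay above 1. The counts were then 5 above and 3 below for the cytosolic and 1 above and 3 below for the mitochondrial enzymes.

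Sars, Gars and Aars were the 3 genes with intervals above 1, and all 3 are cytosolic enzymes reported as ATF4 targets, as are 13 of the 20 cytosolic genes. With reads divided by each library's own total Iars, Rars and Iars2 lay above 1 as well. Of these, Rars is no reported target and Iars2 is mitochondrial. Sars, which charges serine tRNA and also the tRNA that carries selenocysteine, had 426.5 CPM in the control against 497.7 with LY500307, a ratio of 1.17 (1.13 to 1.21). Its log2 fold of 0.22 was the highest of all 36 genes. Gars, the glycine enzyme of both compartments, was at 691.6 and 755.4 CPM, a ratio of 1.09 (1.06 to 1.12). Aars, the alanine enzyme, which also removes wrongly attached serine and glycine, was at 611.9 and 648.3 CPM, a ratio of 1.06 (1.03 to 1.09). Gene models of another build, used here for overlaps alone, place all of Exosc6 inside an exon of Aars on the same strand, over 14.3% of its exonic bases. The sources used here do not say how such reads were assigned.

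The cytosolic genes with intervals below 1 were Lars, Tars, Vars and Farsb. Lars, the leucine enzyme, which also serves as a leucine sensor for mTORC1, had 132.5 CPM in the control against 116.4 with LY500307. Its ratio of 0.878 (0.824 to 0.936) was the lowest of the cytosolic group. Vars, the valine enzyme, was at 449.5 and 419.5 CPM, a ratio of 0.933 (0.902 to 0.965). Tars, the threonine enzyme, was at 188.8 and 175.9 CPM, a ratio of 0.931 (0.884 to 0.981). Farsb, the beta subunit of the phenylalanine enzyme, was at 141.9 and 133.4 CPM, a ratio of 0.940 (0.885 to 0.999), and its partner subunit Farsa at 84.7 and 82.0, with an interval of 0.896 to 1.05.

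The intervals of the other 12 cytosolic genes included 1 as well. Eprs, a fused enzyme that charges glutamate and proline tRNAs, was at 499.2 and 494.8 CPM. Nars, for asparagine, was at 363.1 and 370.7 CPM, and Iars, for isoleucine, at 267.4 and 276.8. Wars, for tryptophan, a gene that interferon gamma is known to induce, was at 263.7 and 252.9 CPM, with an interval of 0.918 to 1.002. Kars, the lysine enzyme of both compartments, was at 230.2 and 236.5 CPM, and Rars, for arginine, at 154.7 and 163.5, a ratio of 1.06 (0.999 to 1.12). The other 6 were at nearly the same level in each library. Mars, for methionine, was at 170.9 and 164.2 CPM, Cars, for cysteine, at 168.4 and 164.7, and Yars, for tyrosine, at 156.6 and 155.9. Qars, for glutamine, was at 147.5 and 145.9 CPM, Dars, for aspartate, at 147.2 and 144.9, and Hars, for histidine, at 89.4 and 87.1.

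All 4 mitochondrial genes set apart by their intervals were lower in the LY500307 library. Cars2, the mitochondrial cysteine enzyme, was at 26.4 and 21.7 CPM, a ratio of 0.822 (0.709 to 0.951) on 438 and 321 reads, and it was the single member past 1.2-fold. It lay just past that bound, at a log2 fold of -0.27, and inside it at -0.25 with reads divided by each library's own total. Vars2, for valine, was at 44.2 and 37.2 CPM, a ratio of 0.842 (0.752 to 0.941), and Yars2, for tyrosine, at 37.5 and 31.9, a ratio of 0.851 (0.753 to 0.960). Lars2, for leucine, was at 72.6 and 65.9 CPM, a ratio of 0.908 (0.834 to 0.989). The leucine and valine enzymes were thus lower in both compartments, though for Lars2 the interval was 0.845 to 1.002 with own totals. The isoleucine enzymes Iars and Iars2 were slightly higher, with intervals that include 1 as reported and lie above it with own totals.

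The other 12 mitochondrial genes had intervals that include 1, and their counts leave wide limits. Iars2, the most abundant of the group, was at 133.1 and 140.4 CPM. Its gene shares 22.9% of its exonic bases with the opposite-strand gene Rab3gap2 in the gene models. Tars2, for threonine, was at 50.6 and 52.6 CPM and Aars2, for alanine, at 42.2 and 46.3, a ratio of 1.095 (0.985 to 1.22). The enzymes at intermediate level were slightly lower in the LY500307 library. Mars2, for methionine, was at 33.5 and 32.4 CPM, Rars2, for arginine, at 32.4 and 31.2, and Sars2, for serine, at 32.2 and 31.6. The least abundant enzymes were on 123 to 320 reads. Hars2, for histidine, was at 19.3 and 18.3 CPM, Wars2, for tryptophan, at 18.6 and 17.0, Ears2, for glutamate, at 18.5 and 18.1 and Fars2, for phenylalanine, at 18.3 and 17.2. Nars2, for asparagine, was at 12.1 and 10.9 CPM, with an interval of 0.729 to 1.12. Pars2, for proline, was at 7.47 and 8.31 CPM, with an interval of 0.859 to 1.44, the widest of the group.

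Exons of 13 members, 6 cytosolic and 7 mitochondrial, overlap another gene in the models, mostly on the opposite strand. The library kit keeps strand, but no source used here says whether the counting did, so such reads may be shared. Besides Iars2 and Aars, the overlap took 9.47% of Farsb (with Sgpp2), 8.72% of Fars2 (with Nrn1), 8.52% of Vars2 (with Gm20483) and 5.83% of Cars2 (with Naxd). Hars and Hars2, on opposite strands, share 195 bases, and exons of Mars and of the stress gene Ddit3 share 68.

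Levels were compared between genes per kilobase of coding sequence, which counts reads of untranslated regions without their length. On that scale the cytosolic enzymes had a median of 89.9 CPM per kb in the control against 87.4 with LY500307, and the mitochondrial enzymes of 16.6 and 15.8. The ratio of these medians was 5.42 for the control and 5.54 for LY500307. Gars was the highest cytosolic gene at 316.2 and 345.4 CPM per kb, followed by Sars at 277.6 and 324.0, Nars at 216.5 and 221.1 and Aars at 210.7 and 223.3. Lars was the lowest, at 37.5 and 32.9 CPM per kb, and the only cytosolic gene that lay below a mitochondrial one, Iars2, at 43.8 and 46.2. Pars2 was the lowest of all, at 5.24 and 5.83 CPM per kb.

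**Figure D2:**
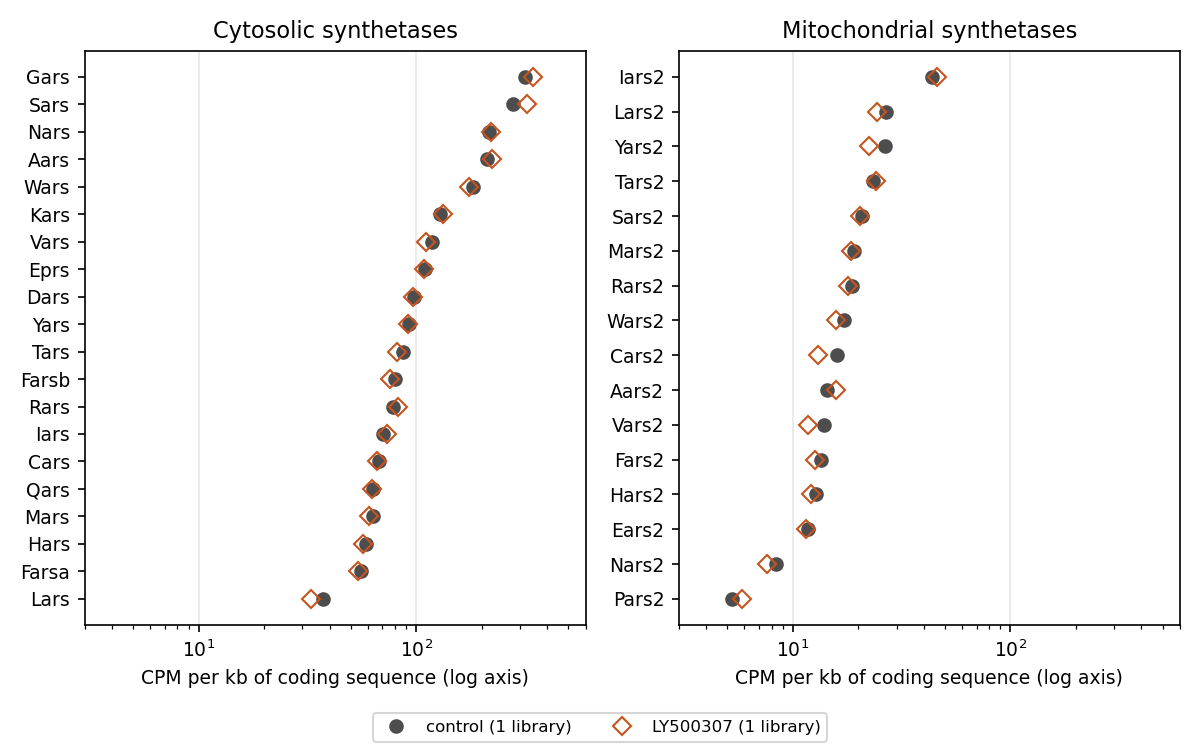
Level of each cytosolic (left) and mitochondrial (right) synthetase gene in CPM per kilobase of coding sequence on a log axis, with the control library as filled circles and the LY500307 library as open diamonds. The symbols of a gene nearly coincide, and only Lars among the cytosolic genes reaches the mitochondrial range, below Iars2.

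The cytosolic and mitochondrial sets were then compared as groups. Summed over the genes, the cytosolic enzymes came to 5386 CPM for the control against 5487 for LY500307, a ratio of 1.019 (1.009 to 1.029). The mitochondrial enzymes summed to 599.0 and 581.0 CPM, a ratio of 0.970 (0.942 to 0.999). With reads divided by each library's own total the mitochondrial ratio was 0.983 (0.955 to 1.012), an interval that includes 1, and the cytosolic one 1.033 (1.023 to 1.043). The cytosolic ratio was 1.05 times the mitochondrial one (1.02 to 1.08). Abundant genes weigh most in a sum, and Sars, Gars and Aars are among the 4 most abundant cytosolic genes per kilobase. The medians, which weigh genes equally, differed by 0.043 on the log2 scale.

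For 16 amino acids an enzyme of each compartment was measured, which gave 17 pairs of genes, with Eprs and Fars2 each used more than once. The cytosolic gene had the higher log2 fold in 10 pairs and the lower in 7, and the median difference was 0.033. The ratio of the cytosolic to the mitochondrial fold had an interval above 1 in 3 pairs, below 1 in 0 pairs and including 1 in 14. The share for pairs of other genes was not computed, so this count has no background beside it. For serine the ratio was 1.19 (1.05 to 1.36), with Sars higher and Sars2 level in the LY500307 library. For cysteine it was 1.19 (1.02 to 1.39) and for tyrosine 1.17 (1.02 to 1.34), in each with a lower mitochondrial and a nearly level cytosolic gene. At the other end lay proline at 0.891 (0.688 to 1.16), on few Pars2 reads, and threonine at 0.896 (0.801 to 1.002), with Tars lower and Tars2 slightly higher. The level of the cytosolic gene per coding kilobase was above that of its mitochondrial partner in every pair of the control library, from 1.398-fold for leucine to 25.7-fold for asparagine.

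**Figure D3:**
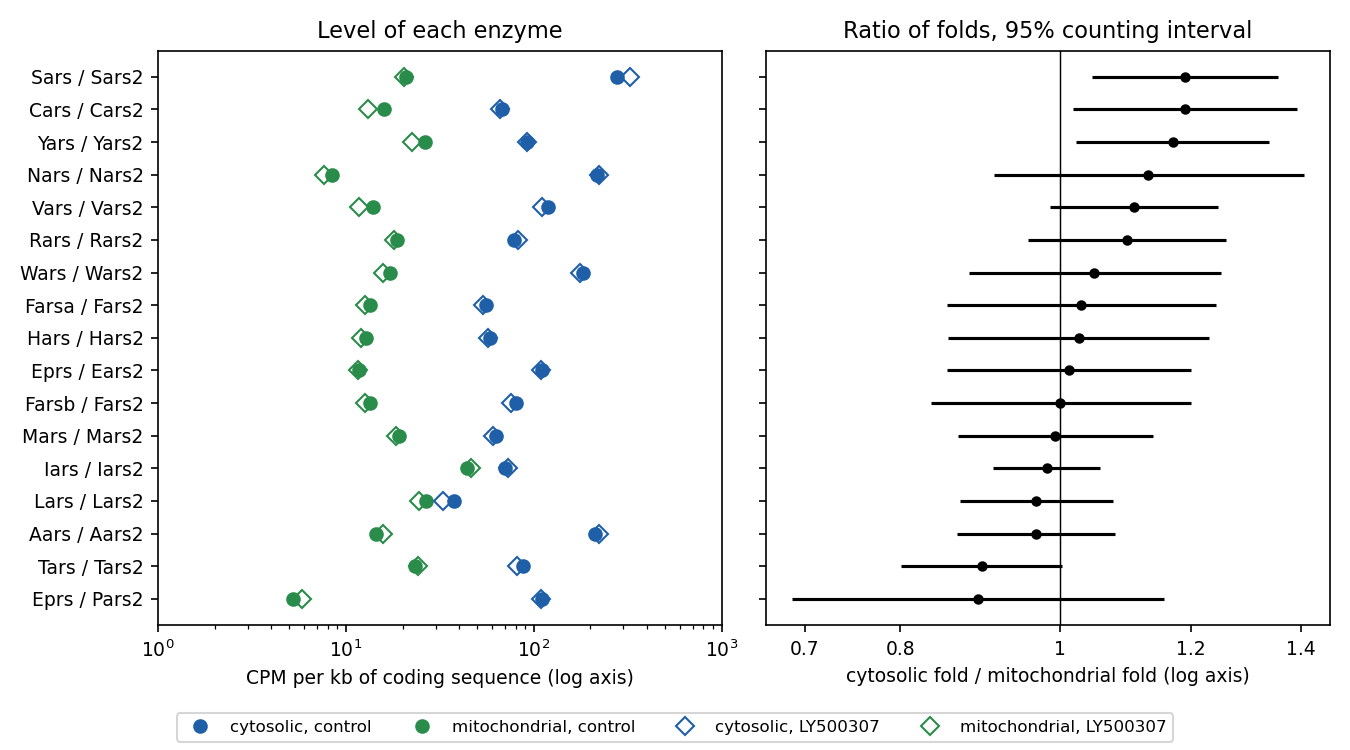
Pairs of a cytosolic and a mitochondrial synthetase gene for the same amino acid. Left, level of each gene in CPM per kilobase of coding sequence on a log axis in the control and LY500307 libraries. Right, the cytosolic fold divided by the mitochondrial fold with its exact 95% counting interval, which lies above 1 for the serine, cysteine and tyrosine pairs.

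The synthetases fall into structural classes that evolved separately, class I with a Rossmann-type catalytic fold and class II with a catalytic domain of antiparallel strands. Of the 18 class I genes of both compartments, intervals lay above 1 for 0 and below 1 for 6, 33.3%, and the median log2 fold was -0.055. Of the 17 class II genes they lay above 1 for 3, 17.6%, and below 1 for 2, 11.8%, with a median of -0.023. Over all genes the shares were 17.2% above and 19.2% below. Of the 9 cytosolic class I genes 22.2% lay below, beside 33.5% of genes at the levels of the cytosolic enzymes. Of the 9 mitochondrial class I genes 44.4% lay below, beside 18.9% at the levels of the mitochondrial enzymes. With reads divided by each library's own total, Iars, Rars and Iars2, all of class I, had intervals above 1. Lars2, of class I, and Farsb, of class II, then had intervals that include 1. The count of 0 above in class I thus depends on the scaling. These are few genes, and a difference between classes was not tested. Eprs, whose fused domains belong to different classes, was left out. The 4 mitochondrial genes with intervals below 1 were all of class I, where 9 of the 16 are. In the cytosol the median was -0.032 for class I and 0.0037 for class II.

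Several cytosolic synthetases are held in a multisynthetase complex with 3 scaffold proteins. The 8 enzyme genes of the complex were Dars, Eprs, Iars, Kars, Lars, Mars, Qars and Rars. Their median log2 fold was -0.014, with an interval below 1 for Lars alone, 12.5%, and above 1 for none. With reads divided by each library's own total the intervals of Iars and Rars lay above 1, so that last count depends on the scaling. The 12 cytosolic genes outside the complex had a median of -0.035 and intervals above 1 for 3, 25%, and below 1 for 3, 25%. Genes at the levels of the cytosolic enzymes gave 20.7% above and 33.5% below, and all genes 17.2% and 19.2%. The share above 1 outside the complex is thus near the background, and the 2 groupings were not tested against each other. Of the scaffold genes, Aimp1 was at 70.2 and 73.3 CPM and Eef1e1 at 40.9 and 40.1. Aimp2, the scaffold that binds the lysine enzyme, was at 33.0 and 27.1 CPM, a ratio of 0.820 (0.719 to 0.935). Its log2 fold of -0.28 was just past 1.2-fold, as the only one of the 3 scaffold genes, 33.3%, beside 9.91% of all genes downward. Own totals raise each log2 ratio by 0.020, so whether Aimp2 passes the bound depends on the scaling.

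Genes that act beside the synthetases were looked at as well. For 12 genes of tRNA processing, export, proofreading and mitochondrial amidation or formylation, all 12 intervals included 1, and the median was -0.030. Past 1.2-fold were 0 upward and 1 downward, 8.33%, beside 11.5% and 9.91% of all genes. The 1 gene was Aarsd1, which edits mischarged alanine tRNA, at a log2 fold of -0.31 on 29 and 18 reads. The formyltransferase gene Mtfmt was at 0.15, the deacylase gene Dtd2 at -0.11 and the tRNA exporter gene Xpot at -0.015. Of the 5 cytosolic elongation factor genes 0 were past 1.2-fold, with Eef1d at -0.19, Eef1b2 at 0.17 and Eef1a1, which delivers charged tRNA to the ribosome, at -0.059. Their intervals, narrow at mean levels of 293.6 CPM or more, lay above 1 for 3, 60%, and below 1 for 2, 40%. All genes gave 17.2% and 19.2%. Of the 4 mitochondrial elongation factor genes 0 were past 1.2-fold either, with Gfm1 at -0.18, Tsfm at 0.075 and Tufm, the mitochondrial counterpart of Eef1a1, at -0.053. The interval lay below 1 for Gfm1 alone, 25%, and above 1 for 0. The 77 mitochondrial ribosomal protein genes had a median of 0.039, with 4 past 1.2-fold upward and 1 downward and intervals above 1 for 15 and below 1 for 4. These are 5.19% and 1.30% past the fold, beside 11.5% and 9.91% of all genes, and 19.5% and 5.19% by intervals, beside 17.2% and 19.2%. Among them Mrpl50 was at -0.41, Mrpl23 at 0.32 and Mrpl10 at 0.30.

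ATF4 and other genes of the amino acid response had log2 folds from -0.44 to 0.71. Their median level of 47.8 CPM was below the 130.6 of the synthetases, and folds spread more widely among genes of low level, so the ranges are not compared. This list, like the other related lists, was chosen with earlier results of these data known, so its shares are a description only. Of 24 listed genes 23 were measured, with a median log2 fold of 0.14. Past 1.2-fold were 6 upward, 26.1%, and 2 downward, 8.70%, and intervals lay above 1 for 12, 52.2%, and below 1 for 2, 8.70%. All genes gave 11.5% and 9.91% past the fold and 17.2% and 19.2% by intervals, so the downward share past the fold is near the background. Cebpb, a partner of ATF4, was at 8.68 and 14.9 CPM, a ratio of 1.71 (1.38 to 2.13). Ddit3, which encodes the stress factor CHOP, was at 29.4 and 43.7 CPM, a ratio of 1.49 (1.32 to 1.68). Sesn2, an inhibitor of mTORC1, was at 56.0 and 79.5 CPM, a ratio of 1.42 (1.30 to 1.55), and Trib3, a pseudokinase that restrains ATF4, at 56.9 and 74.4, a ratio of 1.31 (1.198 to 1.43). Asns, the asparagine synthetase that makes the amino acid and charges no tRNA, was at 248.3 and 273.6 CPM, a ratio of 1.102 (1.055 to 1.15). The transcript of Atf4 itself, which is controlled largely at translation, was at 452.7 and 426.2 CPM, a ratio of 0.941 (0.910 to 0.973). The 13 cytosolic synthetases reported as ATF4 targets had a median of -0.013, none past 1.2-fold. Their intervals lay above 1 for 3, 23.1%, and below 1 for 3, 23.1%. Genes at the levels of the cytosolic enzymes gave 20.7% and 33.5%, so the share above 1 is near that background. The other 7 had a median of -0.023 and intervals above 1 for 0 and below 1 for 1, 14.3%. With reads divided by each library's own total, Iars of the 13 and Rars of the 7 also lay above 1. The interval of Farsb, the gene of the 7 below 1, then included 1. Among the 5 genes with the promoter core shown above, Aars and Gars had intervals above 1, Tars below 1, and Iars and Yars across it on the scale as reported.

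Amino acid transporter genes, which supply the substrates, differed by member. Of 11 genes 2, 18.2%, were past 1.2-fold upward and 0 downward, beside 11.5% and 9.91% of all genes, and the median was 0.036. Intervals lay above 1 for 4, 36.4%, and below 1 for 3, 27.3%, beside 17.2% and 19.2% of all genes. Slc7a11, the cystine importer, was at 32.7 and 53.6 CPM, a ratio of 1.64 (1.47 to 1.83), and Slc3a2, the heavy chain it shares with Slc7a5, at 316.4 and 426.2, a ratio of 1.35 (1.30 to 1.397). The neutral amino acid transporter gene Slc1a4 was at 55.9 and 66.0 CPM. The 3 genes with intervals below 1, named after their values were seen, were Slc38a1 at a ratio of 0.890, Slc7a5 at 0.925 and Slc7a1 at 0.933. Beside the higher cystine importer, the cysteine enzymes Cars and Cars2 had the ratios 0.978 and 0.822.

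**Figure D4:**
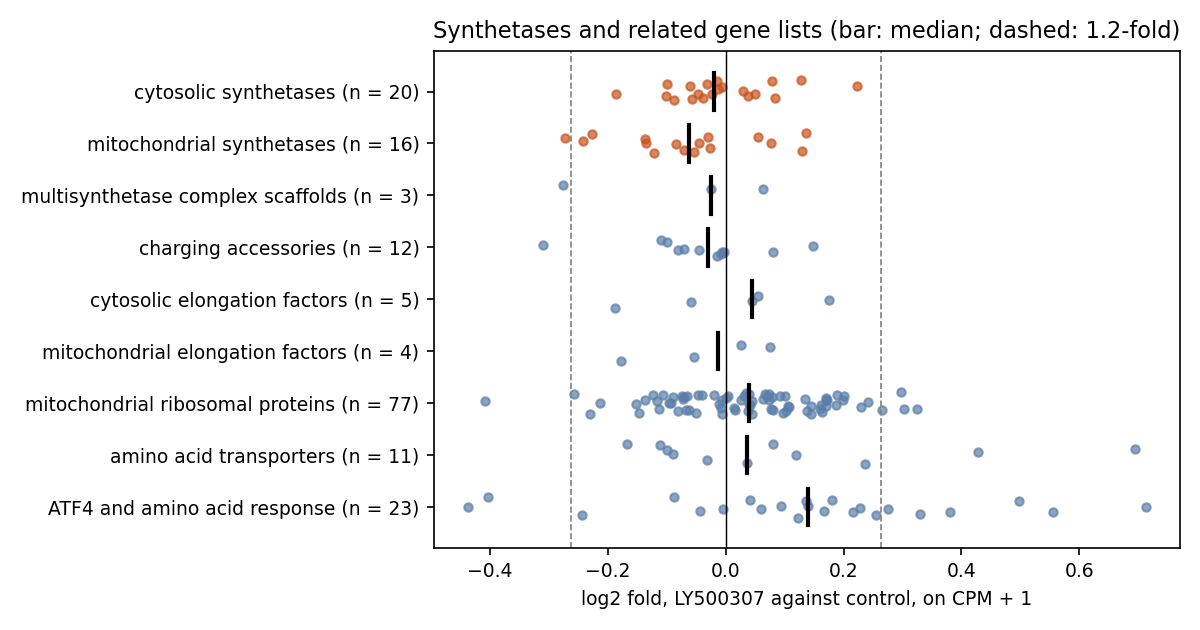
Log2 fold of LY500307 against control on CPM + 1 for each measured gene (points) of the synthetases and of related lists, with the median as a bar and 1.2-fold as dashed lines. Synthetase points run from -0.27 to 0.22, with Cars2 alone past a dashed line. Genes of the ATF4 and amino acid response list run from -0.44 to 0.71. Their median level is lower, and folds spread more widely at low level, so the ranges are not compared.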

How the data were processed

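Per the labels' protocols, stranded libraries were prepared from RNA depleted of ribosomal RNA. CASAVA 1.8, Bowtie2 and the build mm9 are named in the submitters' processing notes, while no source used here names the counting tool, annotation or scaling. The signal per gene that the authors deposited proved to be read counts times 1 factor per library, since low values differ by a constant step (0.944 control, 1.059 LY500307). Whole reads recovered this way lay within 1% of a read for 99.8% of the control and 100% of the LY500307 values. No count test was run, as 1 library per group leaves no replicates.

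For CPM, the mean of both deposited totals served as the common divisor. The log2 fold is log2((LY500307 + 1)/(control + 1)) with a pseudocount of 1 CPM, which understates the fold of low genes. A gene needed a mean of 1 CPM or more, and intervals are exact Clopper-Pearson intervals of the read ratio. Ratios of folds have exact conditional intervals of the odds ratio. PCR reads without molecular identifiers are not independent molecules. Groups are described by counts and medians beside all genes, with no test, because genes are not replicates. Symbols matched 18177 identifiers. Coding lengths, overlaps and copies (blastn 2.17.0, 95% identity across 100 bases or more, covering 50% of the shorter transcript) came from GENCODE M21, on another build than mm9, and no position from it is given. Coding length is that of the principal transcript. The mitochondrial ribosomal protein list leaves out pseudogenes.

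The members and lists were chosen with earlier results of these data known. All 36 members are named, with the 3 largest absolute folds of each related list and 8 genes fixed by name. One promoter sequence is not reported here. The calculations were tested on simulated data. Alternatives were scaling, pseudocount, minimum level, fold, mean for median, near-identical copies, and, chosen after seeing the data, overlapping genes and transcript length. The software was scipy 1.17.1 with numpy 2.4.6, pandas 2.3.3 for tables and matplotlib 3.10.9 for plots, under Python 3.11.15.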

Additional observations from a re-analysis of the deposited data

How the results depend on the processing

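Each of the 108 recomputed single-gene folds stayed within its counting interval. The same reads were used each time and the shifts are smaller than the intervals, so this outcome is no check on the folds. Eprs, Qars and Yars, all near 0, changed sign with reads divided by each library's own total, which moves every log2 ratio by 0.020. Under the same scaling the summed cytosolic ratio was 1.033 in place of 1.019, the interval of the mitochondrial sum included 1, and 5 genes changed sides by their intervals. The count of mitochondrial genes lower past the fold, 1 as reported, was 0 with that scaling, 0 with a pseudocount of 5 CPM, and 0 at 1.5-fold and at 2-fold. Per kilobase of transcript the ratio of cytosolic to mitochondrial medians was 6.08 for the control and 6.52 for LY500307, a setting chosen after seeing the data. The cytosolic median ran from -0.023 to 0.00040 and the mitochondrial one from -0.071 to -0.043. The difference of the medians ran from 0.032 without the 13 members with overlapping exons to 0.059 with means. Only Aars met the rule for a near-identical copy, through Exosc6. No paired analysis was possible because each group has 1 library. Without replicates, differences between cultures cannot be separated from the treatment, and the mitochondrial enzymes on few reads have limits too wide to show small differences.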
